A study of Mus musculus with 2 samples.

Results

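Antisense noncoding genes are transcribed from the strand opposite another gene. In cortex from the left hemisphere of 2 male B6CASTF1/J mice, 4 days after birth, 192 of them reached a TPM of 1 in both animals. TPM, a share of all transcripts that allows for their length, is the level used throughout. The genes were chosen by that level, from the 2948 genes of the GENCODE M21 annotation whose transcripts all carry the class antisense, among 55536 annotated genes in the tables. Another 2753 fell under the threshold, and 3 past it (of Dlx6os1, Kcnq1ot1, Airn and Tsix) were left out by the rule. B6CASTF1/J mice are first-generation hybrids of a C57BL/6J and a CAST/EiJ parent. Each mouse gave 1 library of ribosome-depleted total RNA, made with strand information from 300 ng of RNA and with ERCC spike-in RNAs, and no other condition or age was sampled. The labels number the mice replicate 1 and replicate 2, and ratios between them are replicate 2 over replicate 1.

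Antisense transcripts can act where they are made, by being transcribed through a promoter or exon of the other strand, by recruiting chromatin proteins or by pairing with the sense RNA. Others move away from their locus and act elsewhere, and for most no function is known. In the brain, antisense genes accompany many regulators of forebrain development, and some imprinted loci are silenced by one. Many begin at a promoter that fires in both directions, back to back with a protein-coding gene.

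The 192 genes were a small part of the RNA. Their expected counts summed to 27897 in replicate 2 and 27082 in replicate 1, or 0.0949% and 0.101% of the annotated counts. They made up 6.52% of antisense genes, against 5.21% of lincRNA genes (305 of 5854) and 59.4% of protein-coding genes (13084 of 22028) that passed the same threshold. Their median level was 2.29 TPM in replicate 2 and 2.34 TPM in replicate 1. The detected lincRNA genes had a median of 3.10 TPM and the detected protein-coding genes one of 17.6 TPM. By mean level over both libraries, 17 members lay at 10 TPM or more, 21 between 5 and 10, 69 between 2 and 5, and 85 under 2. Many are thinly covered: the median member had 100.5 counts in both libraries together, and the least covered had 10.

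The windows around the start sites of 4 members are shown because the results below return to them. Each runs 5′ to 3′ on the strand of the antisense gene, from 250 bases before to 50 bases after the start site in RefSeq (build GRCm38.p6), and CG pairs are in capitals. Tug1 (chr11:3648765-3649064, minus strand) is the highest member, and its RefSeq start lies 859 bases from the start of the gene in M21. Kcnmb4os2 (chr10:116472913-116473212, plus strand) is the highest whose symbol names its sense gene. A830082K12Rik (chr13:78197767-78198066, plus strand) starts beside Nr2f1, and the start of one annotated Nr2f1 transcript falls at base 164 of the window. Gm26782 (chr14:50870046-50870345, plus strand) exceeded its opposite gene by the widest margin among members at 10 TPM or more. No annotated start of the opposite gene falls in the windows of Tug1, Kcnmb4os2 and Gm26782. Distances between starts given below are those of the M21 annotation.
Tug1: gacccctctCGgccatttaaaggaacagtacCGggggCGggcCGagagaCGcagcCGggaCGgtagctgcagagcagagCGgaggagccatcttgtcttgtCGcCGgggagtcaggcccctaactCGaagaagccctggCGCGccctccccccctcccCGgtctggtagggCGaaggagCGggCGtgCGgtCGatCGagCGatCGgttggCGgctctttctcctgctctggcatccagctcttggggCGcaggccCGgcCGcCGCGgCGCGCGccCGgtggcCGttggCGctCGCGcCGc
Kcnmb4os2: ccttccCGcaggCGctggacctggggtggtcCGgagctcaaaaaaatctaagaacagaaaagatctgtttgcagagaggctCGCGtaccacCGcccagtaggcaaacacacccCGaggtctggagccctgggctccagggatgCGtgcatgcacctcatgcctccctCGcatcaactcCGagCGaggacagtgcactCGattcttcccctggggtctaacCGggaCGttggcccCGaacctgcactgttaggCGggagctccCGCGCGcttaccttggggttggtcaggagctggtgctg
A830082K12Rik: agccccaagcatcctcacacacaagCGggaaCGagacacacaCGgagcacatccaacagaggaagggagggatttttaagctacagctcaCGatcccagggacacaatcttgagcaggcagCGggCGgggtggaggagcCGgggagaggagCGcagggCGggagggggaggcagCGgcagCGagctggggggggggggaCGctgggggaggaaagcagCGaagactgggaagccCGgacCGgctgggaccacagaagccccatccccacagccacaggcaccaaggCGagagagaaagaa
Gm26782: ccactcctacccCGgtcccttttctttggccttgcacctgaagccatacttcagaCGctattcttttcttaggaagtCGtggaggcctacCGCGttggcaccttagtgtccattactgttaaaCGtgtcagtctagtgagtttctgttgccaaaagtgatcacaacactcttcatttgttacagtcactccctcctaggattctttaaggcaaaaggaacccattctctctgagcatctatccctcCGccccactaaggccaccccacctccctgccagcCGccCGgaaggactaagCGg
The Tug1 window holds 37 CG pairs, that of Kcnmb4os2 19, that of A830082K12Rik 16 and that of Gm26782 10.

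Of the 192 members, 83 matched a RefSeq start window by symbol, strand and place. Among these 83, 69.9% had a GC content of 50% or more and a ratio of observed to predicted CG pairs of 0.6 or more, a pattern typical of CpG islands. The same held for 19.9% of the 831 matched antisense genes under the threshold, 70.7% of 10138 detected protein-coding genes and 34.1% of all 27025 genes with a window. Of 71 matched members that start close to a protein-coding start, 74.6% had the pattern, as did 5 of the 12 matched members at other positions. Of 334 genes under the threshold that start close to a protein-coding start, 41.6% had it. The letters GGGCGG, the core of an Sp1-type GC box, were found on either strand in 60.2% of the matched members and 35.9% of all windows. Detected protein-coding genes had them in 66.0%, and each of the 4 windows above holds them. The letters TATAAA occurred in 7.2% of the matched members and 14.2% of all windows, and CCAAT in 38.6% and 37.9%, on either strand. These matches describe the letters in the windows and no test was made of them.

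Position against the other strand was not used to choose the members. A member was called head-to-head where one of its annotated transcript starts lay within 1000 bases of a start of a protein-coding gene of the opposite strand, and 135 members were, or 70.3%. Under the threshold 935 antisense genes were, or 34.0%, and among the 1516 listed at 0 in both libraries the share was 20.7%. Members lying wholly inside an opposite protein-coding gene away from its start were fewer, 23 genes or 12%, against 45.7% of those under the threshold. A further 15 members overlapped an opposite gene at its 3′ end (tail-to-tail) and 6 at its 5′ end with starts further apart. Another 4 spanned one and the remaining 9 overlapped none. Head-to-head members were set apart first, whether or not they overlap the opposite gene. The median distance between the starts was 252 bases for members and 4339 bases for genes under the threshold. With the limit at 500 bases the head-to-head share was 63.5% of members and 26.2% of genes under the threshold. A gene with more annotated transcripts can have more starts to fall within the limit. Members had a median of 2 transcripts, and 87 of 192 had only 1. Under the threshold the median was 1, and 2153 of 2753 genes had only 1. What part this has in the shares was not tested.

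**Figure D1:**
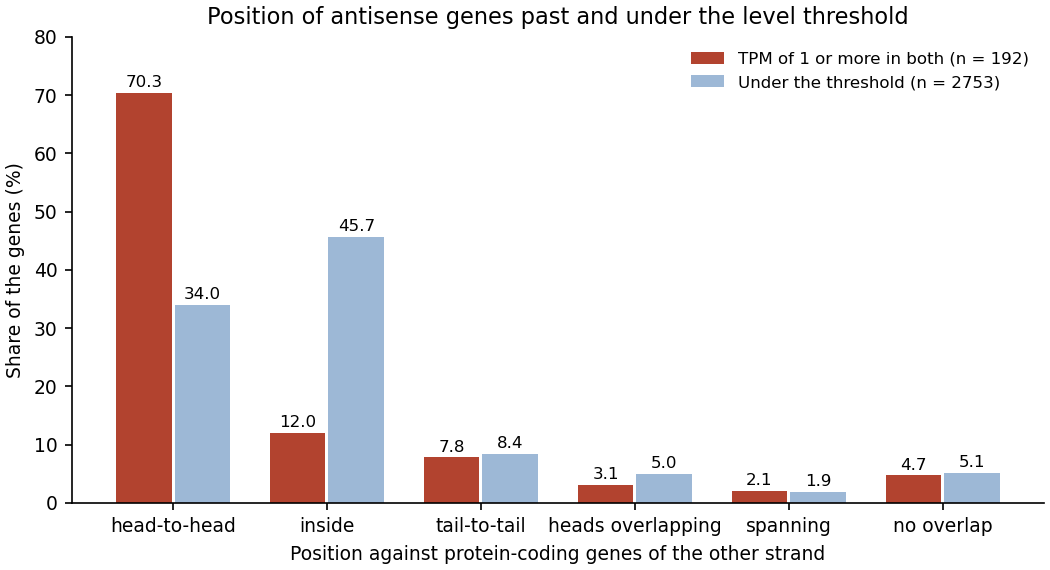
Share of antisense genes (%) in each position against protein-coding genes of the other strand, for the 192 genes at a TPM of 1 or more in both libraries and the 2753 under that threshold. Head-to-head genes were 70.3% of the first set and 34.0% of the second, and genes inside an opposite gene 12% and 45.7%.

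Members had a median exonic length of 1766 bases, against 880 for genes under the threshold, and 18.2% had a single exon, against 5.5%. Exonic bases lay opposite an exon of another gene in 81.8% of members and in 57.0% of genes under the threshold. The opposite protein-coding gene was itself detected for 163 of the 183 members that have one (89.1%), with a median of 23.5 TPM over the 183. Among genes under the threshold, 77.4% of the opposite genes were detected and their median was 11.1 TPM. Length enters the TPM, so it is not independent of the way the members were chosen. In 4 members an annotated small RNA lies in the gene: Rab26os holds Snord60, Snhg9 holds Snora78, D030055H07Rik holds Mir135a-1 and Gm49685 holds Gm25711 and Gm27397.

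**Figure D2:**
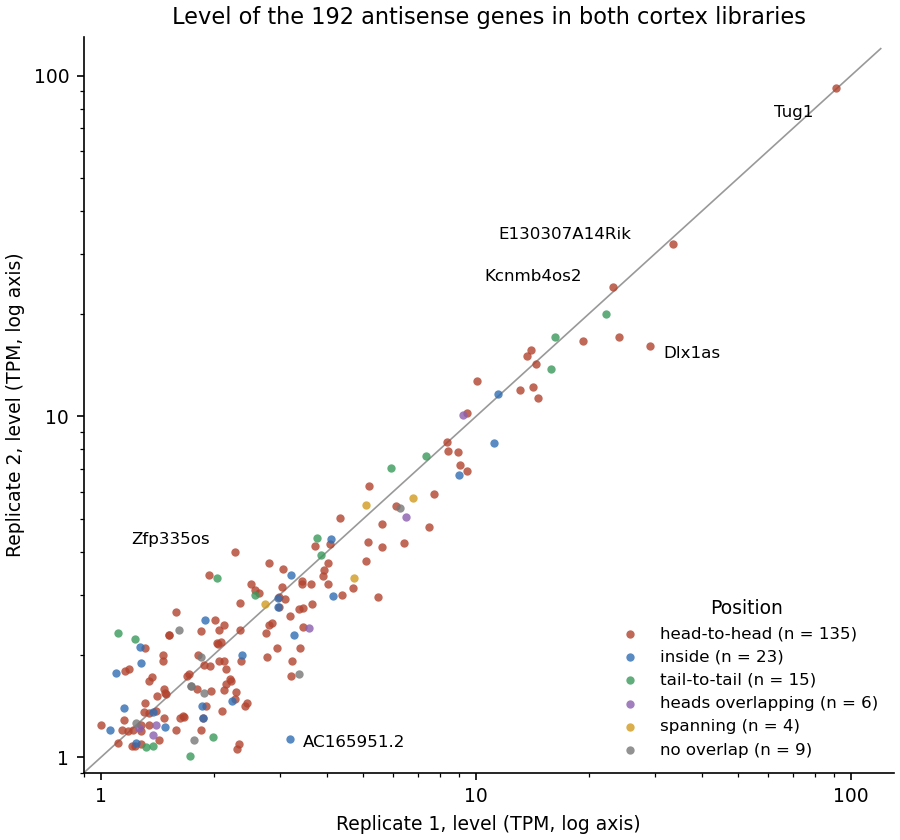
Level of each of the 192 genes in replicate 2 (vertical axis) and replicate 1 (horizontal axis), in TPM on log axes, coloured by position, with the line of equal levels. Tug1 stands apart near 92 TPM in both libraries, and Dlx1as lies below the line at 16.1 TPM in replicate 2 and 29.2 TPM in replicate 1.

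Tug1, a long noncoding RNA first described in the developing retina, was the highest member at 92.1 TPM in replicate 2 and 91.4 TPM in replicate 1. It held 10.7% of the members' summed TPM. Its start lies 86 bases from that of Morc2a, an ATPase of heterochromatin silencing, which had 39.6 and 38.8 TPM in the same order. No single isoform dominated Tug1: the transcript that led in replicate 2 held 26.6% of the gene's TPM there and 27.1% in replicate 1, where another transcript led. E130307A14Rik came next at 32.1 and 33.6 TPM, opposite Rev3l, the catalytic subunit of a DNA polymerase that bypasses damage, at 55.1 and 60.6 TPM. The gap from the first to the second member was thus wide in both libraries.

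Kcnmb4os2 had 23.9 TPM in replicate 2 and 23.2 TPM in replicate 1. It starts 150 bases from Kcnmb4, the neuronal beta subunit of the large-conductance calcium-activated potassium channel. Kcnmb4 itself had 37.2 and 40.9 TPM, so the antisense gene was lower in both libraries. Dlx1as, next by level, had 16.1 TPM in replicate 2 and 29.2 TPM in replicate 1. B230334C09Rik, a gene of 1 exon and 8927 bases that meets the 3′ end of Lrrc40, had 19.9 and 22.3 TPM. Its 3386 and 3348 counts were the largest after those of Tug1.

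A830082K12Rik, which has several annotated starts, lies by its closest one 19 bases from a start of Nr2f1, a nuclear receptor gene that patterns cortical areas. That closest pair of starts is outside the window shown. It had 17.1 TPM in replicate 2 and 24.1 TPM in replicate 1, against 96.4 and 107.5 TPM of Nr2f1. The other members among the 12 highest kept to a narrow band. 4933431E20Rik, opposite the glutathione transferase gene Gstm5, had 16.7 and 19.3 TPM. Rab10os, which meets the 3′ end of the small GTPase gene Rab10, had 17.2 and 16.2 TPM. Of the sense genes in this band, Rab10, Arhgap21 and Pcbp1 were all above 100 TPM in both libraries, levels far above their antisense genes. Gm13375, beside the GTPase-activating protein gene Arhgap21, had 15.7 and 14 TPM. 1600020E01Rik, beside the RNA-binding gene Pcbp1, had 14.3 and 14.5 TPM, and Tmem147os, beside the endoplasmic reticulum protein gene Tmem147, had 14.99 and 13.7 TPM. The last of the 12 by mean level was Tmem147os. Another gene entry of that symbol on the same strand had a mean of 7.135 TPM and covers 12.5% of this entry's exonic bases. Zfhx2os, 10th at 13.8 and 15.9 TPM, is uncertain, since 63.0% of its exonic bases are also exons of the member Gm20687 on the same strand. Among these 12, ordered by mean level, neighbours overlap in their values over the libraries except Tug1 with E130307A14Rik, E130307A14Rik with Kcnmb4os2, and Rab10os with Gm13375.

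The highest members of the other positions were lower. Inside their opposite gene lay Gm16536, within the beta-secretase gene Bace1, at 11.6 and 11.5 TPM, AC109619.1 within Macrod1 at 8.33 and 11.1 TPM, and Gm13205 within Casz1, a zinc finger transcription factor gene, at 6.73 and 9.01 TPM. With 5′ ends overlapping further apart lay A830036E02Rik, beside the corneal keratin gene Krt12, at 10.1 and 9.25 TPM, C230034O21Rik beside the giant cadherin gene Fat4 at 5.06 and 6.52 TPM, and Gm15941. The 4 spanning members were led by Gm20687 at 5.76 and 6.80 TPM. Of members that are not head-to-head and overlap no opposite protein-coding gene, Gm14286 was highest at 5.40 and 6.28 TPM. Median levels of the positions ranged from 1.71 TPM (no overlap) to 4.66 TPM (spanning, n = 4), and head-to-head members had 2.28 TPM, close to the 2.24 TPM of all members.

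At the threshold itself the values are close. Just inside lay Gm38225 at 1.24 TPM in replicate 2 and 1.00 in replicate 1, Gm5089 at 1.01 and 1.73, and AC166166.1 at 1.20 and 1.06. Just outside lay A330009N23Rik at 0.99 and 2.70, Gm4221 at 1.47 and 0.99, and Gm42984 at 0.99 and 1.06. The members lowest by mean level were 6330562C20Rik at 1.10 and 1.11 TPM, Gm38225 and AC166166.1. Counts behind these are small, 7 and 5 in Gm38225, so which genes near 1 TPM are members rests on a few reads.

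A list of 27 known antisense and overlapping RNAs held 14 that the tables class as antisense only. Of these, 3 were members: Dlx1as, Nespas and Sp3os. Nespas, the antisense RNA of the imprinted Gnas cluster, had 4.24 TPM in replicate 2 and 6.42 TPM in replicate 1, against 800.2 and 774.9 TPM of Gnas, which encodes the stimulatory G protein alpha subunit. Sp3os, which starts 138 bases from the zinc finger factor gene Sp3, had 10.2 and 9.45 TPM. Emx2os, antisense to the dorsal forebrain homeobox gene Emx2, was under the threshold at 0.35 TPM in each library. Pax6os1, Wt1os, Evx1os, Uchl1os, Vax2os, Foxo6os and Nkx2-2os were at 0.14 TPM or less in both libraries, Hotairm1 was at 0.42 TPM in replicate 2 and 0 in replicate 1, and Nrg3os and Hoxb5os were listed at 0.

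The symbols of 24 members name a sense gene, and of those sense genes 22 were detected. Within each library the log2 ratio of (antisense TPM + 0.1) over (sense TPM + 0.1) was taken. A pair counted as lower or higher if the sign was shared by both libraries and the mean was larger than 2 SD. By this rule 19 of 24 antisense genes were lower than the sense gene, 4 were higher and 1 was not called, with a median log2 ratio of −2.89. Over all 245 antisense genes with a named sense gene and any level in the pair, 83.7% were lower and 3.27% higher. The members were chosen for a high antisense level, so their share of higher pairs is not independent of that choice and is not tested. Across the 24 pairs the antisense and sense levels showed a Pearson's r of 0.14 on the log scale, as a description over genes that share both libraries. The same choice cut the range of the antisense levels, so this r cannot show how strong the relation is.

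**Figure D3:**
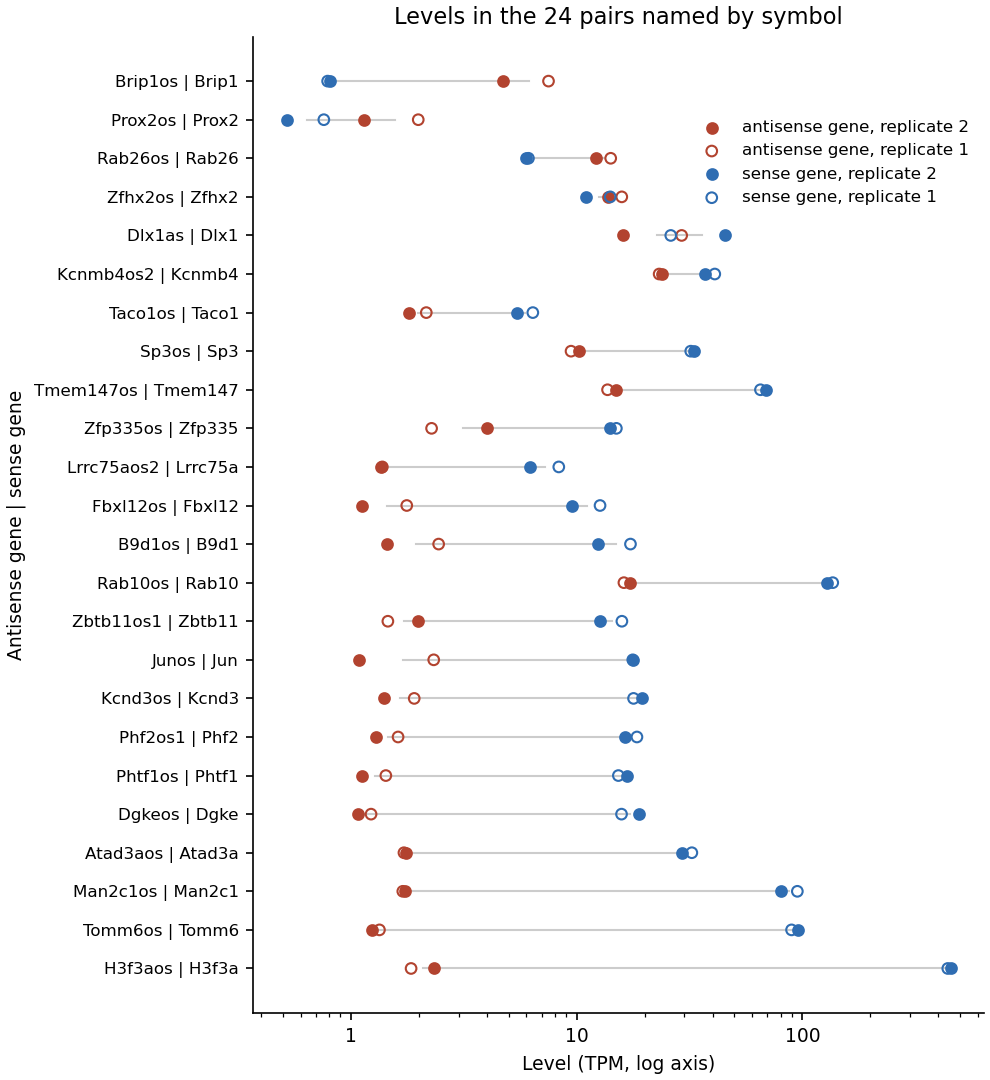
Levels (TPM, log axis) of the antisense gene (red) and the sense gene (blue) in replicate 2 (filled) and replicate 1 (open) for the 24 named pairs, ordered by ratio, with a line joining the means. In 19 pairs the antisense gene is lower, down to H3f3aos at 2.34 and 1.85 TPM, and only Brip1os, Prox2os, Rab26os and Zfhx2os are higher than the sense gene in both libraries.

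The widest gap was that of H3f3aos, which had 2.34 TPM in replicate 2 and 1.85 TPM in replicate 1. Its sense gene H3f3a, which encodes the histone variant H3.3, had 452.7 and 440.1 TPM. The mean log2 ratio was −7.68 ± 0.20 (SD, n = 2). In the other quantification it was −8.35. Tomm6os had 1.24 and 1.34 TPM beside 95.3 and 89.5 TPM of Tomm6, a subunit of the mitochondrial import pore, a log2 ratio of −6.06. Man2c1os had 1.73 and 1.70 TPM beside 80.3 and 94.9 TPM of the cytosolic mannosidase gene Man2c1. The next 3 were Atad3aos beside the mitochondrial ATPase gene Atad3a (−4.07, and −4.68 in the other quantification), Dgkeos beside the lipid kinase gene Dgke (−3.79) and Phtf1os beside Phtf1 (−3.56). Few counts lay behind Atad3aos, 7 in replicate 2 and 12 in replicate 1, and behind Dgkeos, 12 and 13. All 6 antisense genes start within 1000 bases of the sense gene, as 18 of the 24 named antisense genes do.

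Brip1os exceeded its sense gene by the most. It had 4.74 TPM in replicate 2 and 7.51 TPM in replicate 1, against 0.81 and 0.79 TPM of Brip1, a DNA repair helicase gene whose start is 177 bases away. The log2 ratio was 2.75 ± 0.48 (SD, n = 2), and 1.14 in the other quantification. No exonic base is shared between Brip1os and Brip1, but 20.2% of those of Brip1os lie opposite exons of other genes, the highest at 39.7 TPM. Prox2os had 1.15 and 1.99 TPM against 0.52 and 0.76 TPM of the homeobox gene Prox2, with 23 and 35 counts behind the antisense values. Rab26os had 12.2 and 14.2 TPM against 5.97 and 6.12 TPM of Rab26, a GTPase gene of vesicle traffic. That order did not hold in the other quantification of the same libraries, where the log2 ratio was −1.25 in place of 1.11. Rab26os lies inside Rab26 and starts 310 bases from another gene, Traf7, and 15.7% of its exonic bases are also those of Snord60, which was listed at 0 TPM. Zfhx2os had 13.8 and 15.9 TPM against 10.96 and 14.1 TPM of Zfhx2, a zinc finger homeobox gene. Its log2 ratio was small, 0.25 ± 0.11 (SD, n = 2), or 0.74 in the other quantification, and 73.1% of its exonic bases lie opposite exons of Zfhx2. In counts, which make no allowance for length, Zfhx2os was below Zfhx2, at 430.7 and 593.7 against 1378 and 1634. Rab26os was below Rab26, at 55 and 53 against 159 and 133, while Brip1os and Prox2os were above their sense genes in counts too.

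Dlx1as was the named pair without a call. Dlx1as is transcribed across Dlx1, a homeobox gene of GABAergic interneurons, and had 16.1 TPM in replicate 2 and 29.2 TPM in replicate 1. Dlx1 had 45.5 TPM in replicate 2 and 26.1 TPM in replicate 1. The antisense gene was thus lower than Dlx1 in replicate 2 and slightly higher in replicate 1. Between the libraries Dlx1as differed by −0.80 ± 0.14 (SE, from counts) on the log2 scale and Dlx1 by 0.84 ± 0.05, in opposite directions. The exact binomial test of the 2 libraries, adjusted over all genes, gave 2.69e-07 for Dlx1as and 1.36e-61 for Dlx1. The 7 other interneuron markers of the list summed to 314.1 TPM in replicate 2 and 246.2 TPM in replicate 1. The 8 striatal markers summed to 156.8 and 96.4 TPM. Both sums were higher in replicate 2, where Dlx1as was lower. In bulk tissue, a change in the number of cells of a type and one in RNA per cell cannot be told apart. What part tissue makeup has in the Dlx1as difference was not tested. One Dlx1as isoform led, with 68.6% of the gene's TPM in replicate 2 and 78.5% in replicate 1.

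Each of the 183 members with an opposite protein-coding gene was also set against that gene, whether or not the symbol names it. By the same rule 152 were lower, 24 higher and 7 not called, with a median log2 ratio of −2.93. Over all 2710 antisense genes with such a gene and any level in the pair, 90.1% were lower and 1.77% higher. Among head-to-head members 124 of 135 were lower, with a median of −3.29, and among members inside a gene 18 of 23. In tail-to-tail members 6 were lower and 6 higher, with a median of −0.04. Across the 183 pairs the levels of both genes had a Pearson's r of 0.08, given as a description. The rule cut the antisense levels at 1 TPM, so this r cannot show how strong the relation is. Where the member shares no exonic base with another gene on either strand, 20 of 25 were lower.

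**Figure D4:**
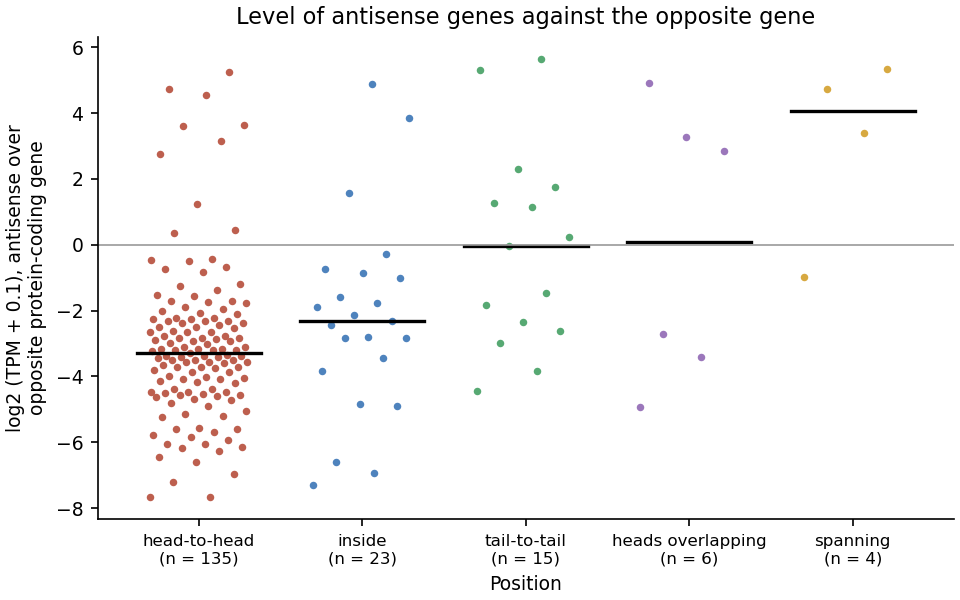
Mean log2 ratio of (TPM + 0.1), antisense over opposite protein-coding gene, for the 183 members that have such a gene, by position (points, bar at the median, line at equal levels). Head-to-head members cluster below 0 with a median of −3.29, and tail-to-tail members lie on both sides with a median of −0.04.

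The members that exceeded their opposite gene are given in sets by that gene's counts. In most, the opposite gene had 33 counts or fewer in each library. Gm26982 had 7.06 TPM in replicate 2 and 5.92 TPM in replicate 1, while Ghrl, the ghrelin gene of stomach, was at 0 and 0.07 TPM. Gm17116 had 3.92 and 3.86 TPM and Gm15879 had 3.55 and 3.94 TPM, while the protease gene Prss52 and the secreted nuclease gene Dnase1 were listed at 0 in both. Several of these opposite genes are known from other tissues. A830036E02Rik had 10.1 and 9.25 TPM, against 0.98 and 0.84 TPM of Krt12. Gm26935 had 1.24 and 1.40 TPM, against 0.09 and 0.10 TPM of Gapdhs, the sperm form of glyceraldehyde-phosphate dehydrogenase. Gm13054 had 1.08 and 1.38 TPM, against 0.27 and 0.31 TPM of Nppa, the atrial natriuretic peptide gene. In the same set were Gm15690 beside Sds, the liver serine dehydratase gene, 4833422C13Rik beside the acyl-CoA thioesterase gene Acot12, Gm16008 beside the receptor gene Tnfrsf18, 1700124L16Rik beside Ankrd53, Gm15941 beside 4930447A16Rik, BC037039 and Gm38225 beside Gm42416, Gm49685 beside Acot10, and A930015D03Rik beside H2-T24. In 3 of these, exons of the member also lie opposite exons of a further gene that was expressed, at 69.3 TPM for BC037039, 154.3 TPM for 4833422C13Rik and 11.3 TPM for Gm38225.

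Other members exceeded a gene with more counts of its own. Gm26782 had 11.4 TPM in replicate 2 and 14.6 TPM in replicate 1, against 1.14 and 0.78 TPM of Tep1, a telomerase-associated protein gene 176 bases away. The log2 ratio was 3.64 ± 0.61 (SD, n = 2). Gm13205 had 6.73 and 9.01 TPM, against 0.38 and 0.53 TPM of Casz1. AC109619.1 had 8.33 and 11.1 TPM, against 3.13 and 3.17 TPM of Macrod1, which surrounds it. Gm2415, whose start is 2 bases from that of the phosphatase gene Ctdspl, had 11.95 and 13.1 TPM against 8.52 and 9.80 TPM. Trmt61b, a symbol that names an antisense gene in this annotation, had 7.66 and 7.34 TPM against 1.73 and 1.21 TPM of Spdya, a cell cycle gene. Tug1 exceeded Morc2a by a log2 ratio of 1.23 ± 0.01 (SD, n = 2). In counts, which make no allowance for length, Gm2415 was below Ctdspl, at 438 and 424 against 565 and 564. Gm13205 was close to Casz1, at 60 and 71 against 58 and 67. Gm26782, AC109619.1, Trmt61b and Tug1 were above their opposite gene in counts too.

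Most members lay close together in the 2 mice. Of the 192, 164 lay within 1.5-fold between the libraries and 3 differed by 2-fold or more before any test. By the exact binomial test of these 2 libraries 15 members were called, or 7.81%, against 26.7% of the 20385 genes tested. Of these, 3 were higher in replicate 2 (13.9% of all genes tested were) and 12 lower (12.8%). The share called moved with the number of counts: among genes with 10 to 200 counts, 3.50% of 143 members, 3.68% of 163 detected lincRNA genes and 8.86% of 1241 detected protein-coding genes were called. The median log2 ratio of the members was −0.039, beside −0.003 over all genes tested. Cortical excitatory neuron markers summed to 699.7 TPM in replicate 2 and 795.2 TPM in replicate 1 (9 of 9 detected), olfactory bulb markers to 39.5 and 8.17 TPM (2 of 4 detected), choroid plexus markers to 59.5 and 25.97 TPM (2 of 5) and blood markers to 434.2 and 204.6 TPM (4 of 4). Their part in the differences was not tested. The libraries held 29511737 counts in replicate 2 and 26897687 in replicate 1, and a gene with 0 counts may have up to 3 counts, or 0.102 and 0.112 CPM, by counting error alone.

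**Figure D5:**
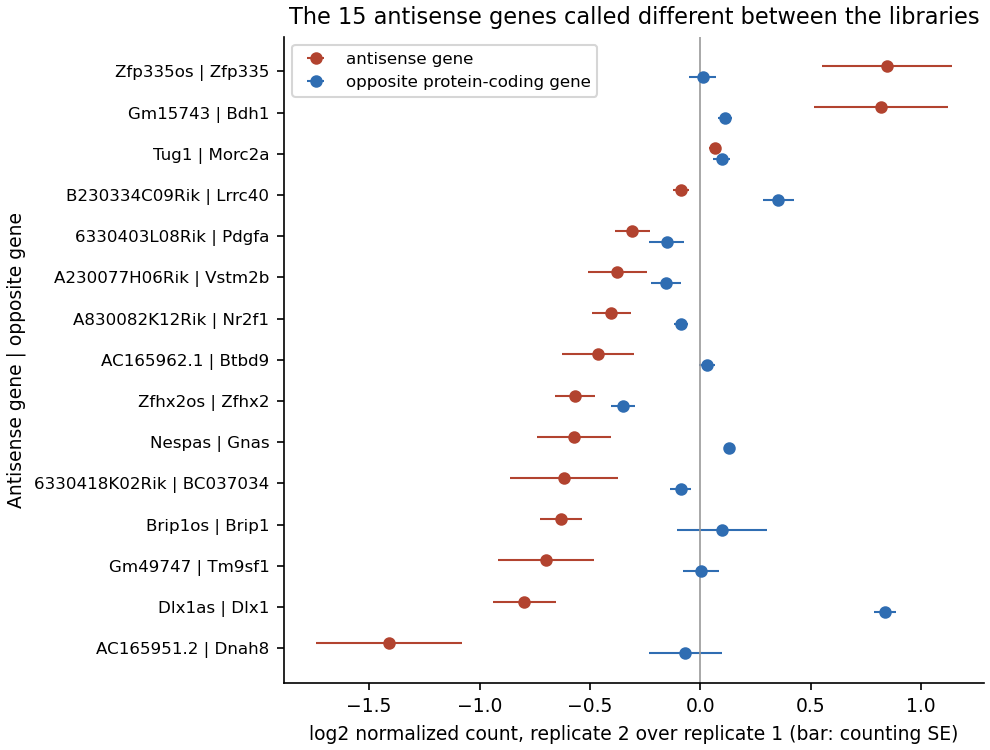
Log2 ratio of normalized counts, replicate 2 over replicate 1, for the 15 members called different between the libraries (red) and their opposite protein-coding genes (blue), with bars for the SE from counts. Zfp335os and Gm15743 lie near 0.8 while their opposite genes lie near 0, and Dlx1as at −0.80 stands opposite Dlx1 at 0.84.

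Zfp335os, beside the zinc finger gene Zfp335 that is needed for neural progenitors, was higher, with 4.00 TPM in replicate 2 and 2.28 TPM in replicate 1. Its log2 ratio was 0.84 ± 0.29 (SE; adjusted exact binomial p = 0.0166), and in the other quantification it was 0.53 and no longer called (adjusted exact p = 0.137). Gm15743, beside the ketone body enzyme gene Bdh1, was higher at 2.28 TPM, against 1.52 TPM (0.82, adjusted exact p = 0.0276). Tug1 was the third, with a log2 ratio of only 0.06 (adjusted exact p = 0.0458), called on 6851 and 6094 counts. With total count scaling its ratio was 0.04 and the call was lost (adjusted exact p = 0.339). Among the lower ones, AC165951.2, inside the dynein gene Dnah8, had 1.13 TPM in replicate 2 and 3.20 TPM in replicate 1. With a log2 ratio of −1.41 ± 0.33 (SE; adjusted exact p = 8.23e-05) it was the one called member past 2-fold. Gm49747, beside Tm9sf1, had 1.41 against 2.42 TPM (−0.70, adjusted exact p = 0.00742). Brip1os had a log2 ratio of −0.63 ± 0.10 (SE; adjusted exact p = 8.79e-10), while Brip1 was at 0.10 with no call. 6330418K02Rik had 2.95 against 5.49 TPM (−0.62, adjusted exact p = 0.0444). That call was lost with DESeq2 size factors (−0.60, adjusted exact p = 0.0524) and in the other quantification (−0.31, adjusted exact p = 0.342). The rest of the lower ones were Nespas, Zfhx2os, AC165962.1, A830082K12Rik, A230077H06Rik, 6330403L08Rik and B230334C09Rik, with log2 ratios between −0.57 and −0.09.

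Antisense gene and sense gene were then compared in how they differed between the mice. Among the 24 named pairs the log2 ratios of antisense and sense gene had opposite signs in 13. Pearson's r over these pairs was −0.33, and over pairs of members with an opposite gene −0.12, as descriptions over genes that share both libraries. Of the 24 named sense genes, 8 were called between the libraries (33.3%), a share close to the 33.5% of detected protein-coding genes and above the 26.7% of all genes tested. Nespas was lower by 0.57 on the log2 scale while Gnas was higher by 0.13. A830082K12Rik had a log2 ratio of −0.40 and Nr2f1 one of −0.09, both called, and Zfhx2os and Zfhx2 had −0.57 and −0.35.

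Overlap with other genes limits some levels, since whether the counting used strand is not given in the sources used here. Among antisense genes with 80% or more of their exonic bases under opposite exons of a gene at 50 TPM or more, 30 in all, the median level was 0 TPM, 18 were listed at 0 and 2 were detected, while the opposite genes had a median of 82.9 TPM. On the same strand, exonic bases are shared with another gene in 14 members and exceed 50% in 3: Gm43079 lies wholly in exons of Acad9 (25.7 TPM), Gm20687 shares 97.1% with Zfhx2os and Thtpa, and Zfhx2os shares 63.0%. Gm3892 and Gm10593 have equal values in the gene table, 1.62 and 1.74 TPM, so that table does not separate them. In the other quantification Gm3892 had 8.69 and 7.76 TPM and Gm10593 had 3.95 and 4.54 TPM. Of the 105 members with several transcripts, 89 had the same leading transcript in both libraries, and in 72 it held 50% or more of the gene's TPM in each. In 77 the other quantification gave the same leading transcript.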

How the data were processed

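Total RNA of left cerebral cortex from 2 mice was measured. Per the file headers, the authors deposited expected counts and TPM per gene, the same per transcript with each isoform's percent of its gene, and a second quantification with estimated counts and TPM per transcript, summed per gene here. Per the labels, values refer to mm10 and, per the deposited notes, to GENCODE M21. Aligner, quantifiers and use of strand in counting: not given in the sources used here. CAST and C57BL/6 alleles were not separated.

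Levels are the TPM as deposited by the authors. Library ratios used expected counts rounded to whole numbers, scaled with TMM factors (edgeR 4.0.16, R 4.3.3) with a prior count of 0.5, and a two-sided exact binomial test (scipy 1.17.1) with Benjamini-Hochberg adjustment over genes with 10 or more counts in total, at 0.05. The test compares 2 libraries, not conditions, and its error is counting error only. It was tested on simulated counts with counting error only, which cannot show how it behaves between different animals. A pseudocount of 0.1 TPM entered log2 ratios. Positions came from the M21 gene models. DESeq2 1.42.0 size factors, other thresholds, pseudocounts and the second quantification were alternatives.

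Named were the 12 highest members, those above their opposite gene, the 6 lowest named pairs, the 5 most extreme called library ratios each way among members with 50 or more counts, the 3 on each side of the threshold and the 3 lowest, members of the list of known antisense RNAs, and the highest of each position. Members and lists were chosen with earlier results of these data known.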

Additional observations from a re-analysis of the deposited data

How the results depend on the processing

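The number of members followed the threshold and the quantification: 322 at a TPM of 0.5, 95 at a TPM of 2, 244 by posterior mean TPM and 404 in the other quantification, which held 182 of the 192 members (94.8% of the members and 45.0% of the 404). The median level was 2.31 TPM over both libraries, 2.44 TPM by posterior mean and 3.71 TPM in the other quantification. The other quantification was higher for detected genes in general, by a median log2 of 0.55, and for members by 0.62. Leaving out 1 library gave medians between 2.28 and 2.34 TPM, 19 to 20 named antisense genes lower than their sense gene and 154 to 157 lower than their opposite gene. Rab26os against Rab26 had a log2 ratio of −1.25 in the other quantification, in place of 1.11, and the cause was not tested. The other named pairs that were called kept their direction in all 6 alternatives. Dlx1as, not called, had −1.49 without replicate 1 and 0.16 without replicate 2. Members called between libraries numbered 12 to 15 over 4 alternatives. The 14 called in the other quantification and the 15 with total count scaling include members that were not called in the main setting. In the other quantification B230334C09Rik, A230077H06Rik, 6330418K02Rik, AC165962.1 and Zfp335os kept their direction and were no longer called. With DESeq2 size factors B230334C09Rik and 6330418K02Rik lost their call, with total count scaling Tug1 did, and without a count minimum Tug1, B230334C09Rik and 6330418K02Rik did, all in the same direction. Chosen after seeing the data, a restriction to members without shared exonic bases left 20 of 25 lower than their opposite gene, by construction on fewer pairs. No paired analysis was possible because there is 1 group. At a median of 100.5 counts, small differences between the libraries could not be detected.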
